A study of Mus musculus with 4 samples.

Results

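Zfp365, Inka2, Myom3, Cox6b2, Prrg4 and Mybl1 are 6 genes of mouse liver that had almost no reads in either control library and at least 323 counts in both libraries from mice given a plant extract. They were picked for this from 25239 genes, by their counts in these same libraries, so their difference between the groups is given as a description and with no test. The extract group was C57BL/6 mice, aged 6 to 8 weeks, dosed through the stomach for 3 weeks with an extract of Gynura segetum (30 g/kg each day, concentrated to 2 g/mL). The control group was mice of the same strain and age given saline. Each group has 2 liver libraries, with 40013188 and 45754235 reads counted to genes in the extract libraries and 49711750 and 32215268 in the control libraries. Nothing says that the libraries of a group come from separate mice, so each p-value below speaks of the spread between these samples alone, and that spread may be technical.

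Gynura segetum contains pyrrolizidine alkaloids, which hepatocytes turn into reactive pyrroles that bind DNA and protein and injure the sinusoidal endothelium. DNA damage stabilises p53, a transcription factor that switches on genes of cell cycle arrest, death and repair. The 6 genes have roles known from other organs. Zfp365 (human ZNF365) is a zinc finger protein of the brain that binds DISC1 and guards fragile sites and telomeres, and it has been reported as a p53 target. Inka2 (formerly Fam212b) is an inhibitor of the kinase PAK4, and human INKA2 has been reported as a p53 target. Myom3 is a myomesin of the M-band that crosslinks myosin filaments in skeletal muscle. Cox6b2 is the testis form of subunit 6B of cytochrome c oxidase. Prrg4 is a membrane protein with a vitamin K dependent Gla domain and proline-rich motifs. Mybl1 (A-Myb) is a transcription factor of male meiosis that drives piRNA genes, and it is also found in germinal centre B cells.

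The genes lie on 6 different chromosomes, by RefSeq on GRCm38.p6, the assembly also named mm10. Zfp365 is on chromosome 10 (67886105 to 67912662), Inka2 on 3 (105704599 to 105720842), Myom3 on 4 (135758800 to 135815571), Cox6b2 on 7 (4751792 to 4753094), Prrg4 on 2 (104830741 to 104849872) and Mybl1 on 1 (9667407 to 9700439). All are protein-coding, and 0 other genes of GENCODE vM21 overlap any of them on either strand. Of all stretches of 50 bases in their transcripts, 0% were shared with a transcript of another gene for Zfp365, Myom3, Cox6b2, Prrg4 and Mybl1, and 0.487% for Inka2.

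Promoter windows of 250 bases before to 50 after the RefSeq start were found for 5 of the 6 genes, with 2 starts for Inka2. The windows with a match to the p53, E-box or antioxidant response motif are shown, from RefSeq on GRCm38.p6, 5′ to 3′ on the strand of the gene, with matches in capitals. The Zfp365 window (chr10:67912613-67912912, minus strand) has CACGTG, the E-box of clock and bHLH factors, 41 bases before the start, and TATAAA 185 bases before it.
Zfp365: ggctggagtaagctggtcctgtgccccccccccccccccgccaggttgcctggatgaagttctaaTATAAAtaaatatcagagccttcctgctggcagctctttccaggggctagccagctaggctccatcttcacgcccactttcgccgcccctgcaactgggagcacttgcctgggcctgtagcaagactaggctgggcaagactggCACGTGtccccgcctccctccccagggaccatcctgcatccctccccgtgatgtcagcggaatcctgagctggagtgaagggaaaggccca
The window of the second Inka2 start (chr3:105705208-105705507, plus strand) has a single decamer of the p53 consensus, GGGCTTGTCT, 81 bases before the start.
Inka2 promoter 2: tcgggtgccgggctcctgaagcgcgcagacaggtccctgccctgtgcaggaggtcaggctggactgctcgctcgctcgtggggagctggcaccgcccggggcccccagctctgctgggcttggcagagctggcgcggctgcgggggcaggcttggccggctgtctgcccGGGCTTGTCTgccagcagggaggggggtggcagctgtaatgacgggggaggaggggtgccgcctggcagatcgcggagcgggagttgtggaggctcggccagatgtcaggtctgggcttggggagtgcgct
The Prrg4 window (chr2:104849801-104850100, minus strand) has TGACAATGC, a match to the antioxidant response element TGACNNNGC, 148 bases before the start.
Prrg4: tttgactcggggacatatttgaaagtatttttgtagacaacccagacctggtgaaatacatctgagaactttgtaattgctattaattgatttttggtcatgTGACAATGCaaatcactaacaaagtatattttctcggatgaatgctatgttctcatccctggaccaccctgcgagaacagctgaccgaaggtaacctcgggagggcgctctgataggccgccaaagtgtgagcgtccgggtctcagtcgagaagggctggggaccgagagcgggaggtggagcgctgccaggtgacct
Both strands were searched, and the motifs do not overlap in these windows. A p53 decamer was present in 8.36% of 32851 promoter windows of the same length, CACGTG in 7.15%, TGACNNNGC in 12.4% and TATAAA in 13.6%. A pair of p53 decamers with 0 to 13 bases between them was present in 0.0731% of windows and in 0 of the 6 windows of these genes. The window of the first Inka2 start held TATAAA on the opposite strand, and the Myom3 and Cox6b2 windows held no match. The windows differed in base composition, from 49.0% G and C at Prrg4 to 72.0% at the second Inka2 start, with a median of 52.7% over all windows. A match is a run of letters and does not show that a factor binds there.

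Each gene was nearly silent in both control libraries and was counted at least 323 times in both extract libraries. Zfp365 had 714 and 466 counts in the extract libraries, against 0 and 0 in the control libraries. Inka2 had 1536 and 1496 counts in the extract libraries, against 7 and 1 in the control libraries. Cox6b2 had 1605 and 1064 counts in the extract libraries, against 12 and 10 in the control libraries. Zfp365 had no read in either control library, and the few control reads of Cox6b2 were spread over both. Mybl1 had 1258 and 1226 counts in the extract libraries, against 25 and 8 in the control libraries. Myom3 had 565 and 488 counts in the extract libraries, against 4 and 3 in the control libraries. Prrg4 had 639 and 323 counts in the extract libraries, against 6 and 4 in the control libraries. The groups do not overlap for any of the 6, which the choice of the genes fixes. Among the 13963 genes kept for testing, 27.6% had both extract libraries above both control libraries. In whole liver, more cells that use a gene and more RNA of it per cell cannot be told apart.

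**Figure D1:**
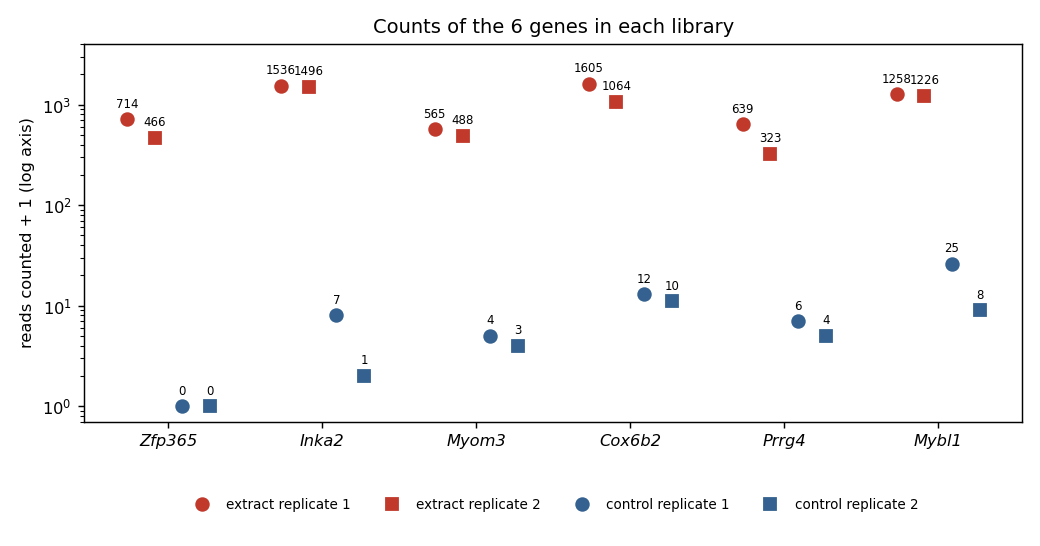
Reads counted for each of the 6 genes, plus 1, on a log axis, in the 2 extract libraries (red) and the 2 control libraries (blue), with the count printed above each point. Every extract library has at least 323 counts and every control library at most 25.

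Scaled to the depth of each library as CPM, the counts per megaread with TMM factors, Inka2 averaged 33.5 ± 2.98 CPM in extract libraries and 0.0898 ± 0.0794 CPM in control libraries (SD, n = 2 each). Cox6b2 averaged 29.8 ± 10.5 CPM in extract libraries and 0.293 ± 0.0611 CPM in control libraries. Mybl1 averaged 27.4 ± 2.43 CPM in extract libraries and 0.395 ± 0.178 CPM in control libraries. These 3 genes had the higher levels after the extract, and the spread of Cox6b2 was the widest of the 3. Zfp365 averaged 13.2 ± 4.79 CPM in extract libraries and had 0 CPM in control libraries, where the upper limits of an absent count are 0.0625 and 0.101 CPM (3 counts each). Myom3 averaged 11.7 ± 2.02 CPM in extract libraries and 0.0922 ± 0.0124 CPM in control libraries. Prrg4 averaged 10.8 ± 5.68 CPM in extract libraries and 0.130 ± 0.00677 CPM in control libraries. Zfp365, Myom3 and Prrg4 overlapped in their extract levels.

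The size of the difference rests on few control reads, so its counting error is wide. Per unit of depth, the summed counts of Inka2 were 324-fold higher in the extract libraries, with an exact 95% interval of 164 to 752. The ratio was 992 without control replicate 1, where 1 control count is left (interval 178 to 39203), and 229 without control replicate 2. Myom3 was 129-fold higher (62.3 to 321), Cox6b2 104-fold (68.4 to 166), Prrg4 82.3-fold (44.6 to 172) and Mybl1 64.4-fold (45.7 to 93.8). These intervals overlap for neighbours in the order, so no order is read between neighbours. Those of Inka2 (164 to 752) and Mybl1 (45.7 to 93.8), at the ends of the order, do not overlap. Prrg4 was 52.7-fold higher without extract replicate 1, and Mybl1 was 102-fold higher without control replicate 1, each a move of more than 1.5 times. Zfp365, with 3 counts put in for each control library, was at least 161-fold higher. Intervals and bounds cover counting error only, not the spread between libraries.

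Levels of different genes can be compared only per length. In CPM per kb of annotated exon, Cox6b2 was highest in the extract libraries, at 33.6 and 20.1, against 0.226 and 0.304 in the control libraries. Its annotated exons cover 1108 bases, against 3165 to 6038 bases for the other 5 genes. Inka2 had 7.45 and 6.57 CPM per kb in the extract libraries, and Mybl1 had 5.40 and 4.76. Prrg4 followed with 4.68 and 2.14 CPM per kb in the extract libraries, Zfp365 with 3.18 and 1.88 and Myom3 with 2.17 and 1.70. Cox6b2, Inka2 and Mybl1 did not overlap with each other, while Prrg4 and Zfp365 overlapped, as did Zfp365 and Myom3. Among 24366 genes with a length, Cox6b2 stood at percentile 93.9 of mean level per length in the extract libraries and at 50.2 in the control libraries. Myom3, the lowest of the 6, stood at percentile 66.0 in the extract libraries and at 36.9 in the control libraries.

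Put into numbers, near-silent was taken as at most 20 counts in each control library and switched on as at least 100 in each extract library. Of 11951 genes with at most 20 counts in each control library, 35 met both limits, or 0.139% of the whole table. Of the 6 genes, 5 are among the 35, and Mybl1 lies outside through its 25 counts in control replicate 1. With the control limit at 30, a value chosen after Mybl1 was seen, 56 genes met the limits, all 6 included. Just inside the limits were Rufy4 with 127 and 101 counts in the extract libraries (19 and 8 in control) and Ak1 with 646 and 691 (20 and 2 in control). Just outside were Celf5 with 98 and 173 counts in the extract libraries (1 and 1 in control) and Cercam with 237 and 159 (22 and 8 in control). Without control replicate 1, the deeper control library, 100 genes met the limits. Leaving out a library removes a condition, so the count could only stay or rise. The limits turned round, with at most 20 counts in each extract library and at least 100 in each control library, were met by 10 genes, among them the Kupffer cell receptor Timd4. The limits are raw counts, and 1 count was 0.0337 CPM in control replicate 2 against 0.0208 to 0.0232 CPM in the other libraries. The 35 and the 10 therefore cannot be compared as numbers of genes switched on and off.

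**Figure D2:**
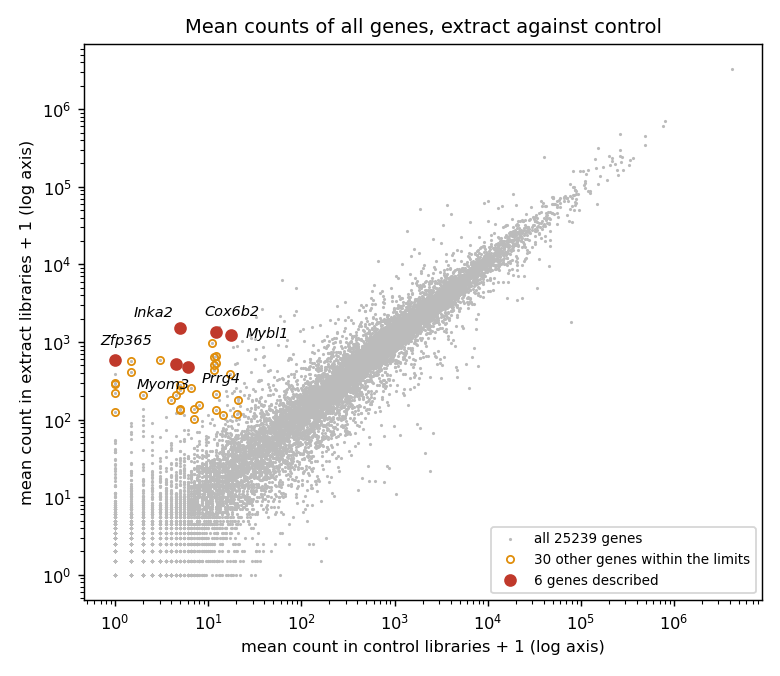
Mean count plus 1 in the extract libraries (vertical) against the control libraries (horizontal), both on log axes, for all 25239 genes. The 6 genes described (red) and 30 other genes within the limits (orange) sit at the upper left, apart from the diagonal band.

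Of the 35 genes within the limits, Inka2 and Cox6b2 had the highest mean CPM in the extract libraries, and Zfp365, Myom3 and Prrg4 ranked 6, 10 and 12. The 30 others were chosen by the same counts and are described with no test. Tnfrsf10b, the death receptor for TRAIL and a p53 target, had 999 and 917 counts in the extract libraries, against 13 and 7 in the control libraries. Psrc1, a spindle protein and p53 target, had 610 and 657 counts in the extract libraries, against 11 and 10 in the control libraries. The adenylate kinase Ak1, given above, was close to Psrc1 in mean CPM. Lif, a cytokine of the interleukin-6 family, had 670 and 488 counts in the extract libraries (4 and 0 in control). Gipc2, a PDZ domain protein, had 553 and 459 counts in the extract libraries (15 and 6 in control). Ly6c1, a surface protein of endothelium and monocytes, had 411 and 448 counts in the extract libraries (19 and 2 in control). Sprr1a, a small proline-rich protein of cornified epithelium, had 508 and 318 (1 and 0 in control).

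Endou had 358 and 415 counts in the extract libraries, against 18 and 14 in the control libraries. Tekt5, a tektin of sperm flagella, had 308 and 289 counts in the extract libraries, against 0 and 0 in the control libraries. Ano3, an anoctamin of the brain, had 334 and 240 (0 and 0 in control), and Tubb3, the neuronal beta-tubulin, had 258 and 304 (8 and 0 in control). Sec14l5 had 325 and 188 counts in the extract libraries (11 and 0 in control), the circadian repressor Ciart 262 and 212 (5 and 3 in control), the glutathione peroxidase Gpx2 242 and 194 (0 and 0 in control) and the mitochondrial creatine kinase Ckmt1 250 and 166 (2 and 0 in control). Over the whole table, 8310 genes were at 0 in both control libraries, and 5 of these had at least 100 counts in each extract library. They were Zfp365, Tekt5, Ano3, Gpx2 and Igll1, the last one named after its values were seen, and Zfp365 had the most reads. Of the 35 genes, 2 are on the list of p53 targets described further on, Tnfrsf10b and Psrc1. That list holds 35 of the 25239 genes of the whole table, of which 0.139% met the limits. Zfp365 and Inka2, reported as p53 targets elsewhere, are not on it, so the 2 are not a full count of genes with a p53 link.

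By Euclidean distance of log2(CPM + 0.1) over the 4 libraries, the genes most like each of the 6 came largely from the same set. Sprr1a (0.78) and Lif (0.88) were nearest to Zfp365, and Lif (1.04) and Gipc2 (1.31) to Myom3. Tnfrsf10b was among the 2 nearest for Inka2 (1.73), Cox6b2 (0.81) and Mybl1 (0.92). Apln, which encodes the peptide hormone apelin, was nearer to Inka2 (1.36), with 1588 and 1568 counts in the extract libraries against 24 and 0 in the control libraries. Ly6d, a surface antigen known from lymphoid and epithelial cells, was the nearest to Mybl1 (0.89), with 1087 and 984 counts in the extract libraries against 28 and 16 in the control libraries. Gipc2 (1.09) and Lif (1.40) were nearest to Prrg4. Among the 6 themselves, Myom3 and Prrg4 were closest (0.72), and Zfp365 and Mybl1 farthest apart (3.62). With 4 libraries in 2 groups, likeness mostly reflects the level in each group.

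All 6 genes were higher in extract replicate 1 than in extract replicate 2, a comparison that their choice did not use. The CPM of Prrg4 was 2.19 times as high in the first as in the second, that of Zfp365 1.69 times, that of Cox6b2 1.67 times, that of Myom3 1.28 times, and those of Inka2 and Mybl1 1.13 times. Among 10793 tested genes with at least 100 counts in each extract library, 49.6% were higher in the first, and the range from the 5th to the 95th percentile of the ratio was 0.781 to 1.36. Prrg4, Zfp365 and Cox6b2 lay above that range, at percentiles 99.7, 98.8 and 98.7. Of the 30 other genes within the limits, 23 were higher in the first library, with a median ratio of 1.21, and of the 24 p53 targets past the threshold described further on, 20 were, with a median of 1.12. This is a difference between 2 libraries and has no replicate check. In extract replicates 1 and 2, 8 endothelial genes summed to 312 and 278 CPM, 8 Kupffer cell genes to 39.5 and 39.6 CPM and 33 muscle genes to 27.4 and 18.8 CPM. The sum of 8 cholangiocyte genes was 59.3 and 61.1 CPM, carried by Spp1 with 30.2 and 38.7 CPM. The cholangiocyte keratin Krt19 (6.19 and 3.21 CPM), Krt7 (2.11 and 0.860 CPM), Epcam (2.32 and 1.47 CPM) and Sox9 (2.90 and 1.85 CPM) were higher in extract replicate 1, as the 6 genes were. The part of these cells in the ratio was not tested.

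**Figure D3:**
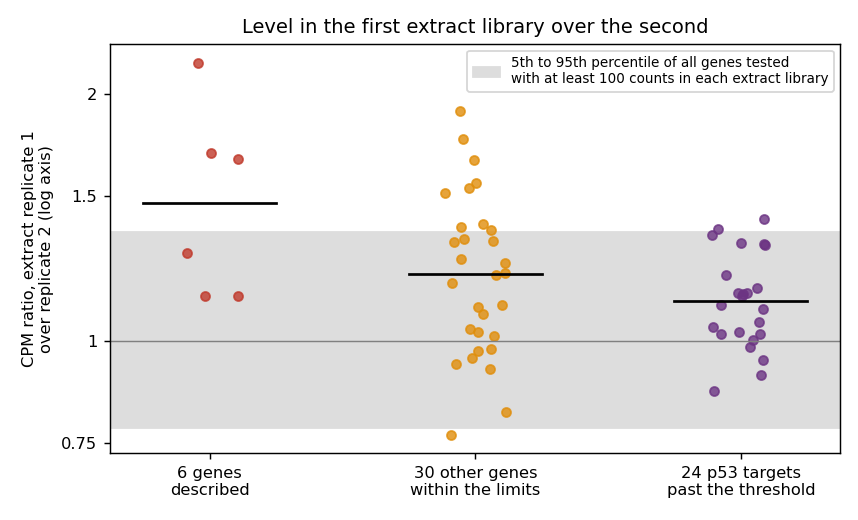
Ratio of CPM in extract replicate 1 over extract replicate 2, on a log axis, for the 6 genes, the 30 other genes within the limits and 24 p53 targets, with black lines at the medians (1.46, 1.21 and 1.12). The grey band is the 5th to 95th percentile of 10793 tested genes, and 3 of the 6 genes lie above it.

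Whether a relative of each gene moved with it was asked in one fit over all 13963 genes kept, with edgeR's quasi-likelihood test and Benjamini-Hochberg adjustment, in which 8.54% of genes were past an adjusted p of 0.05, 4.91% higher and 3.63% lower in the extract libraries. None of the 7 tested paralogues passed, where edgeR gave 2 with an unadjusted p under 0.05 and DESeq2 called 0. Mybl2 is among the 7 but is not read as a test, for a reason given with its counts. Cox6b1, the form of subunit 6B used in most tissues, had 6440 and 7887 counts in the extract libraries, against 6868 and 4822 in the control libraries (edgeR adjusted p = 0.900, log2 fold change 0.04, SE 0.14). Its mean level was 222 CPM per kb of exon in the extract libraries and 216 in the control libraries, and that of Cox6b2 was 26.9 in the extract libraries. So the testis form stayed below the common form after the extract too. Inka1, the relative of Inka2, had 66 and 66 counts in the extract libraries, against 32 and 11 in the control libraries (edgeR adjusted p = 0.174, log2 fold change 1.46, SE 0.56). Without control replicate 1 its edgeR adjusted p was 0.0268.

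Of the other myomesins, Myom1 had 25 and 43 counts in the extract libraries, against 46 and 27 in the control libraries (log2 fold change -0.33, edgeR adjusted p = 0.785), and Myom2 had 0 in all 4 libraries. The relatives of Prrg4 were Prrg1, with 45 and 34 counts in the extract libraries against 88 and 25 in the control libraries, and Prrg2, with 1159 and 1291 against 1015 and 857 (edgeR adjusted p = 0.591 and 0.772). Prrg3 had 137 and 94 counts in the extract libraries, against 54 and 19 in the control libraries (edgeR adjusted p = 0.121, log2 fold change 1.52, SE 0.49), and its edgeR adjusted p was 0.00168 without control replicate 1. Of the MYB family, Mybl2, a factor of dividing cells, had 26 and 18 counts in the extract libraries, against 21 and 3 in the control libraries. Mybl2 reached the low-count limit described further on in both libraries of the extract group only. It is therefore counted among the tested paralogues, but no test is given for it. Myb had 0 and 1 counts in the extract libraries, against 8 and 2 in the control libraries, too few to test.

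**Figure D4:**
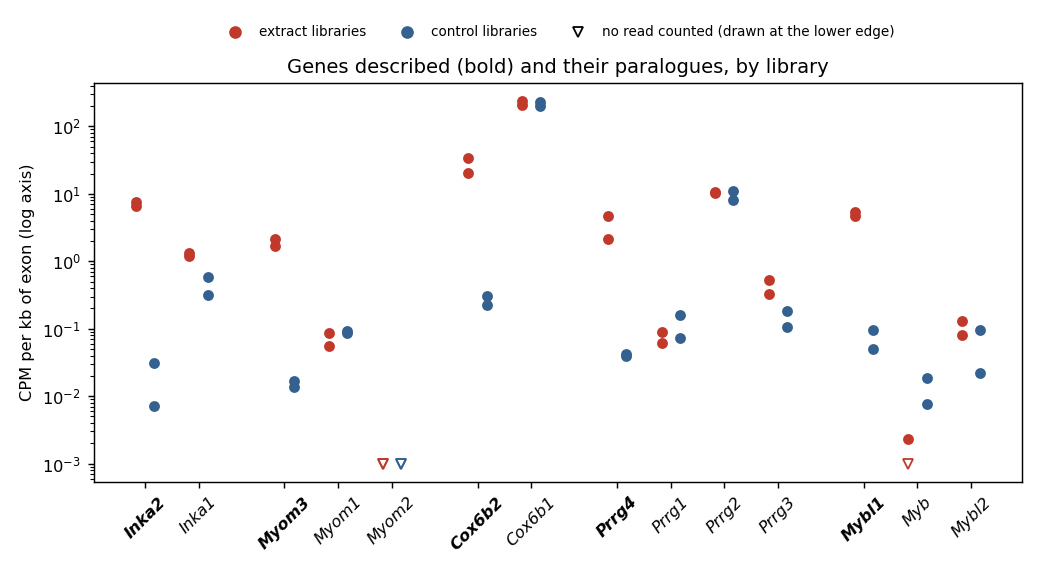
CPM per kb of exon, on a log axis, in the extract (red) and control (blue) libraries for Inka2, Myom3, Cox6b2, Prrg4 and Mybl1 (bold) and 9 paralogues, with open triangles where no read was counted. Cox6b1 stands at about the same level in both groups, with means of 222 and 216, above Cox6b2.

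Lists of genes that work with these families were read in the same fit, in which 8.54% of all genes tested passed in either direction. In lists as short as these, a count of 0 lies near that share and is not read as a result. Of 12 tested nuclear-encoded subunits of cytochrome c oxidase other than Cox6b2, 0 were past the threshold in edgeR, with 0 at an unadjusted p under 0.05 and 0 called by DESeq2, and the median log2 fold change was -0.01, where the median of all genes tested was -0.0047. The 4 subunits with the smallest p-values were Cox7a1 (log2 fold change -0.98, edgeR adjusted p = 0.303), Cox7a2 (0.23), Cox7b (-0.18) and Cox6a1 (0.15). Of 6 tested relatives of Prrg4 and enzymes of the vitamin K cycle, 0 passed in edgeR, 2 had an unadjusted p under 0.05 and DESeq2 called 1 higher. The gamma-glutamyl carboxylase Ggcx, which modifies Gla domains, had a log2 fold change of -0.27 (edgeR adjusted p = 0.422). Of 6 tested MYB family and MuvB genes and of 5 tested INKA and PAK genes, 0 passed in edgeR, with 0 and 1 at an unadjusted p under 0.05 and 0 called by DESeq2 in either list. Pak4, the kinase that Inka2 inhibits, had 767 and 895 counts in the extract libraries, against 726 and 432 in the control libraries (edgeR adjusted p = 0.298, log2 fold change 0.30, SE 0.15).

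Genes that mark the tissues where the 6 are known did not rise with them as lists. Of 28 testis and germ cell genes, 18 had 0 counts in all 4 libraries and 27 had at most 20 in each, and the list summed to 1.41 and 2.31 CPM in the extract libraries, against 1.23 and 2.89 CPM in the control libraries. The sperm protamines Prm1 and Prm2 were at 0 in every library. The meiotic gene Sycp3 was the exception above 20 counts, with 55 and 90 counts in the extract libraries against 50 and 67 in the control libraries (log2 fold change -0.04, edgeR adjusted p = 0.974). Of 33 genes of sarcomere and striated muscle, 24 had at most 20 counts in each library. The muscle list summed to 27.4 and 18.8 CPM in the extract libraries, against 54.6 and 41.9 CPM in the control libraries. Most of the control sums came from Neb, with 41.7 and 31.2 CPM there and 8.76 and 6.61 CPM in the extract libraries. The lower sum in the extract libraries therefore does not speak for the other muscle genes. The 7 tested muscle genes had a median log2 fold change of 0.07. Among 7 tested muscle genes 1 was counted past the threshold in each direction, where 4.91% of all genes tested were higher and 3.63% lower. Slow troponin C (Tnnc1) had 131 and 72 counts in the extract libraries, against 21 and 7 in the control libraries. It reached the low-count limit (10 counts at the median library size) in both libraries of the extract group only, so no test is given for it. Nebulin (Neb), the ruler of the thin filament, fell, with 378 and 315 counts in the extract libraries against 1999 and 926 in the control libraries (edgeR adjusted p = 0.00275, log2 fold change -2.25, SE 0.22).

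Of 19 genes of neurons and glia, 10 were tested and 1 was past the threshold in each direction, and the list summed to 19.49 and 16.996 CPM in the extract libraries, against 18.4 and 16.6 CPM in the control libraries. Most of the control sums came from Syt1, with 10.4 and 11.1 CPM there and 3.92 and 4.07 CPM in the extract libraries. Tubb3 went the other way, with 5.98 and 6.38 CPM in the extract libraries and 0.167 and 0 CPM in the control libraries. The similar sums therefore do not speak for the other neural genes. The one counted as higher was Tubb3, given above, which lies within the near-silent limits and so gets no test here. The synaptic vesicle protein Syt1 fell (-1.43, SE 0.21, edgeR adjusted p = 0.0117), but it missed the threshold with extract replicate 1 left out (0.0964) or extract replicate 2 left out (0.0787). Gap43 of growing axons, the grey point at the far right in the plot of the lists, had 36 and 14 counts in the extract libraries against 0 and 0 in the control libraries, so its fitted fold change is no bound, and it was named after its values were seen. Of 15 tested lymphocyte genes, a cell type that can use Mybl1, 0 passed in edgeR, 8 had an unadjusted p under 0.05 and DESeq2 called 5 lower. Most of the 15, Cd3e and Nkg7 among them, reached the low-count limit in both libraries of the control group only. They entered the fit through the group where they were higher, so the lymphocyte calls are counted but not read as tests. The lymphocyte list summed to 4.10 and 6.00 CPM in the extract libraries, against 36.7 and 9.52 CPM in the control libraries, with control replicate 1 standing apart. Without control replicate 2, edgeR called 11 lymphocyte genes lower, and without control replicate 1 it called 2. Of 16 tested genes of S phase and mitosis, 0 passed in edgeR, 1 had an unadjusted p under 0.05 and DESeq2 called 0. The proliferation list had a median log2 fold change of -0.65, and its best known member Mki67 had 238 and 143 counts in the extract libraries, against 500 and 135 in the control libraries (edgeR adjusted p = 0.377). Without control replicate 2, edgeR called 6 proliferation genes lower, Mki67 among them (adjusted p = 0.000149), and without control replicate 1 it called 1 higher and 1 lower.

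The labelled tissue was checked by 10 hepatocyte genes, which summed to 106343 and 113236 CPM in the extract libraries, against 159086 and 166064 CPM in the control libraries. Of these 10, 3 fell, among them Apoa1 (log2 fold change -0.87, edgeR adjusted p = 0.0294). With either extract library left out 0 passed (Apoa1 at edgeR adjusted p = 0.306 and 0.152), and without control replicates 1 and 2 in turn 6 and 5 fell. The defining hepatocyte genes were thus abundant in every library. Of 8 Kupffer cell genes 7 fell, Timd4 among them, which reached the low-count limit in both libraries of the control group only, with a sum of 39.5 and 39.6 CPM in the extract libraries, against 572 and 449 CPM in the control libraries. Of 8 endothelial genes 2 rose and 2 fell, of 7 tested cholangiocyte genes 1 fell, and of 8 stellate cell genes 1 fell. Of all genes tested, 4.91% were higher and 3.63% lower, so 1 call among 7 or 8 genes is not read as a result. Without extract replicate 1, 0 endothelial genes rose and 1 fell. The cholangiocyte gene, Sox9, did not pass with either extract library left out, while without control replicate 1 or 2 in turn 2 cholangiocyte genes rose, and 2 fell without control replicate 2. Stellate cell genes that fell numbered 2 without control replicate 1 and 5 without control replicate 2. The part of these cell types in the levels of the 6 genes was not tested.

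Many p53 targets rose beside Zfp365 and Inka2. On a list of 35 p53 targets, 24 of 34 tested rose, 0 fell and 10 did not pass, against 4.91% of all genes tested that were higher. The 24 include Tnfrsf10b and Psrc1, which lie within the near-silent limits and get no test here, and without them 22 of 32 rose. The list had a median log2 fold change of 2.24, and it was written with earlier results of these libraries known, so its count is a description. Phlda3, an inhibitor of Akt, had 6087 and 6472 counts in the extract libraries, against 70 and 51 in the control libraries (edgeR adjusted p = 8.29e-05, log2 fold change 6.45, SE 0.18). Ddit4l, a brake on mTOR, had 2060 and 2232 counts in the extract libraries, against 73 and 44 in the control libraries (edgeR adjusted p = 0.000105, log2 fold change 4.97, SE 0.17). The exonuclease Aen had 5331 and 5390 counts in the extract libraries, against 750 and 460 in the control libraries (edgeR adjusted p = 0.000292, log2 fold change 2.93, SE 0.14). In CPM per kb of exon, Phlda3 reached a mean of 88.8 in the extract libraries and 1.02 in the control libraries, above the control level of any of the 6 genes. Tnfrsf10b and Psrc1 had control means of 0.0465 and 0.0841 CPM per kb, below Cox6b2 (0.226 and 0.304 in control replicates 1 and 2). The p53 targets thus differed in control level, and Phlda3 does not stand for them all. Whether p53 acts on any of the 6 in these livers was not tested. No link to p53 is stated here for Myom3, Cox6b2, Prrg4 and Mybl1.

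**Figure D5:**
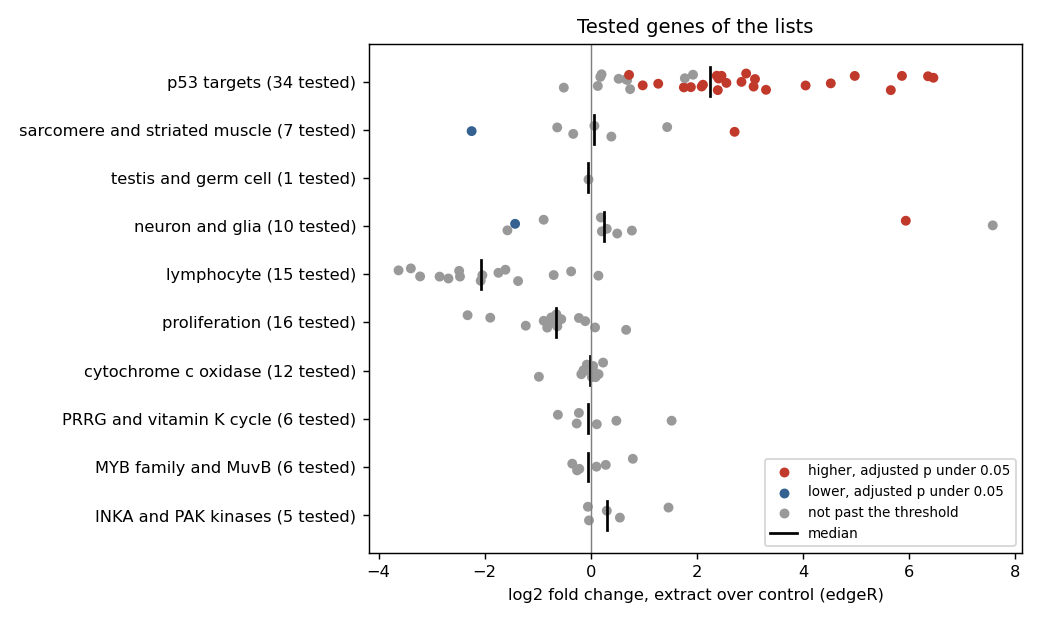
Log2 fold change, extract over control, of each tested gene on 10 lists, with black bars at the list medians. Red points were higher and blue points lower at an edgeR adjusted p under 0.05, and grey points did not pass. The red points of Tnfrsf10b, Psrc1, Tubb3 and Tnnc1 are counted but not read as tests, and the p53 median includes Tnfrsf10b and Psrc1. The p53 list sits to the right with a median of 2.24, while the medians of the cytochrome c oxidase, PRRG and MYB lists sit near 0.

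The coding genes on either side of each of the 6 were read in the same fit. Of 12 nearest protein-coding neighbours, 2 were higher past the threshold, 0 lower, 8 did not pass and 2 were too low to test. Of all genes tested, 4.91% were higher and 3.63% lower. Vxn, 1 of the 2, reached the low-count limit in both libraries of the extract group only, so its call is counted but not read as a test. Fam71e2, whose annotated end lies 131 bases upstream of Cox6b2 on the same strand, had 0 counts in all 4 libraries, and so did Rtkn2, a neighbour of Zfp365. Kmt5c on the other side of Cox6b2 had 599 and 616 counts in the extract libraries, against 659 and 491 in the control libraries (log2 fold change -0.17, edgeR adjusted p = 0.627). Rap1a and Ddx20 beside Inka2 had log2 fold changes of -0.08 and 0.53 (edgeR adjusted p = 0.779 and 0.208). Qser1 and Ccdc73 beside Prrg4 (-0.32 and -0.25), Ado beside Zfp365 (0.16), Srsf10 beside Myom3 (0.12) and Vcpip1 beside Mybl1 (0.05) did not pass either.

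The neighbours counted as higher were Vxn and Il22ra1, of which only Il22ra1 is given a test. Vxn (vexin), a factor of neural development 40271 bases from Mybl1, had 91 and 136 counts in the extract libraries, against 15 and 3 in the control libraries. It reached the low-count limit in both libraries of the extract group only, so no test is given for it. Il22ra1, the receptor subunit through which hepatocytes sense interleukin-22, lies 7574 bases from Myom3. It had 757 and 876 counts in the extract libraries, against 456 and 210 in the control libraries (edgeR adjusted p = 0.0211, log2 fold change 1.11, SE 0.20). It missed the threshold with extract replicate 1 left out (edgeR adjusted p = 0.106) and with extract replicate 2 left out (0.135). Both neighbours had more CPM in extract replicate 2 than in extract replicate 1, the reverse of Mybl1 and Myom3. In replicates 1 and 2, Il22ra1 had 17.5 and 18.4 CPM and Vxn 2.11 and 2.85 CPM. These are differences between 2 libraries, and what they mean was not tested.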

How the data were processed

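Liver RNA of 2 extract and 2 control libraries was extracted with Trizol and sequenced on Illumina libraries, per the labels' protocols. CASAVA 1.8, HISAT2 2.1.0, HTSeq and the build mm10 are named per the submitters' processing notes, with no roles. The annotation and strand setting are not given there. The deposited files hold whole-number counts per gene symbol, with no normalization by the authors. The 5 closing rows that name no gene stayed out, among them alignments to several places (5.18% and 5.33% of records in extract, 6.70% and 9.03% in control libraries).

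Tests on the counts used edgeR 4.0.16 under R 4.3.3 (filterByExpr, TMM, robust quasi-likelihood F test, 2-sided, Benjamini-Hochberg over the genes kept). CPM are counts over TMM-scaled library sizes, and exon lengths are unions of GENCODE vM21 exons. RefSeq symbols matched 99.2% of genes. The test step was checked on simulated data. Alternatives were DESeq2 1.42.0, other scalings and filters, each library left out, other count limits and a replicate block.

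The 6 genes and all lists were chosen with earlier results of these data known. Named genes are the 6, their paralogues and nearest coding neighbours, up to 15 other genes within the count limits by extract CPM, the 2 nearest by likeness, and up to 4 members of a list by p-value with a mean of at least 1 CPM, plus at most 2 that passed in the other direction. Not every gene that the rule takes is described. The low-count limit named for single genes is 10 counts at the median library size, the basis of filterByExpr. Pak5 on the lists was not found by symbol.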

Additional observations from a re-analysis of the deposited data

How the results depend on the processing

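With each library left out, the ratio of summed counts per depth ran from 229 to 992 for Inka2, 114 to 145 for Myom3, 78.9 to 131 for Cox6b2, 52.7 to 115 for Prrg4 and 52.5 to 102 for Mybl1, and the bound for Zfp365 from 120 to 211. The number of genes within the near-silent limits was 21 with at most 10 control counts, 11 with at most 5, 19 with at least 200 extract counts and 56 with at most 30 control counts, and 40 to 100 with each library left out. That last range could not fall below the 35 of all libraries, since leaving out a library only removes a condition. Within at most 10 control counts were 4 of the 6 genes, and within at most 5 Zfp365 and Myom3. With each library left out, 233 to 1826 genes were higher and 134 to 1782 lower. DESeq2 called 909 genes lower. Total-count scaling moved the median of all genes to 0.16 on the log2 scale and gave 940 higher and 338 lower, or 73.6% higher against 57.5%. On the p53 list, 20 to 29 genes were higher and 0 to 1 lower with each library left out. On the muscle, testis, neural and lymphocyte lists together, 1 to 4 genes were then higher and 1 to 13 lower, and 4 were lower with no low-count filter, 7 with DESeq2 and 4 with the replicate block, against 2 in each direction. Paralogues had 0 to 2 members higher and neighbours 0 to 3 higher and 0 to 1 lower. The cause was not tested. With the replicate number as a block, 902 genes were higher and 682 lower, and 28 p53 targets were higher. Same-numbered libraries deviated together at r = 0.157 across genes, but with 2 pairs they share only a number. Depth limits the fold changes, since each rests on 0 to 33 control reads.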
